A study of Mus musculus with 32 samples.

Results

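The 9 genes described here make, bind, read out and break down retinoic acid, the signalling form of vitamin A. They were chosen by name out of the 23154 genes of the series. *Aldh1a1*, *Aldh1a2* and *Aldh1a3* encode the retinaldehyde dehydrogenases, which carry out the last step of retinoic acid synthesis. *Dhrs3* encodes a reductase that turns retinaldehyde back into retinol. *Crabp1* and *Crabp2* encode cytosolic proteins that bind retinoic acid. *Rarb* encodes a nuclear receptor for retinoic acid, and *Cyp26a1* and *Cyp26b1* encode cytochrome P450 enzymes that oxidise and so clear it.

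In vertebrate embryos, retinoic acid is made by some cells and acts on their neighbours, so its local amount depends on where synthesis and breakdown enzymes are expressed. It binds nuclear receptors that sit on DNA as heterodimers with retinoid X receptors, often at direct repeats of a short half-site. The signal is known for its part in patterning the hindbrain and somites and in forming the heart, lung, gut and limbs.

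The cells came from 8 organs (somite, skin, heart, forebrain, hindbrain, lung, liver and intestine) taken from 7 mouse embryos of the strain C57BL/6J, with no genetic change and no treatment in any group. Of the embryos, 3 were of E9.5, while E10.5 and E11.5 had 2 each. E9.5 embryo 2 is labelled female and the others male. The samples of E9.5 embryos 1 and 2 carry the label HiSeq 2500 and all others HiSeq 4000, so at E9.5 the forebrain, hindbrain and heart were measured only on the HiSeq 2500, and day and sequencer cannot be told apart there. Embryo 3 of E9.5 lacks these 3 organs, and its libraries each mix organs, lung with liver in one and skin, intestine and somite in another. E9.5 embryo 1 has no lung or skin cells. At E10.5 and E11.5 each organ is 1 deposited sample that holds the cells of both embryos, whereas E9.5 embryos 1 and 2 have their own samples.

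Levels are given as the mean of log2(TPM/10 + 1) over the cells of an embryo, with at least 3 cells, and a cell is said to express a gene at a value of at least 1. The unit is named TPM by the authors but counts 3′-end molecules (UMIs) per 1000000 UMIs of the cell with no gene length, so levels were compared only within a gene. The 1819 kept cells held 20326 to 2524348 UMIs with a median of 306642, and no cell name occurred in more than 1 file. Of these cells, 1699 fell into 13 cell sets by the authors' labels: neuronal cells of forebrain and hindbrain, epithelial (Epi) and mesenchymal (Mes) cells of intestine, liver, lung and skin, mesodermal cells of heart and somite, and hematopoietic cells of all organs. Most sets carried the markers of their labels, with 5 or 6 of 6 epithelium markers at a level of at least 0.5 in the Epi sets, 6 of 6 cardiomyocyte markers in heart, 6 of 6 hepatoblast markers in liver Epi cells and 6 of 7 paraxial mesoderm markers in somite. Mes cells had lower summed levels of the epithelium markers (3.77 to 12.87, against 14.07 to 36.40 in Epi cells) but did not lack them, with 2 to 5 of 6 at 0.5 or more, and 4 or 5 in intestine Mes cells. Of 7 limb and dermal mesenchyme markers, 6 were at 0.5 or more in skin Mes cells and 1 or 2 in intestine Mes cells, for which no marker list of gut mesenchyme was used.

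On GRCm38, the genes lie at chr19:20492715-20643465 (*Aldh1a1*, plus strand), chr9:71215789-71296243 (*Aldh1a2*, plus), chr7:66390890-66427517 (*Aldh1a3*, minus), chr4:144892827-144928209 (*Dhrs3*, plus), chr9:54764748-54773110 (*Crabp1*, plus), chr3:87948666-87953376 (*Crabp2*, plus), chr14:16430839-16819156 (*Rarb*, minus), chr19:37697798-37701536 (*Cyp26a1*, plus) and chr6:84571414-84593908 (*Cyp26b1*, minus). These are the spans of the whole genes in the annotation. RefSeq promoter windows of GRCm38.p6, from 250 bases before to 50 bases after the start, were searched on both strands for the direct repeat that the receptor heterodimers are known to bind, with 2 half-sites around a 5-base spacer. Each half-site was AGGTCA, its variant GGGTCA, or likewise AGTTCA or the similar GGTTCA. It occurred in 32 of 32851 promoters (0.0974%). Of the 10 promoters of the 7 matched genes, 2 held it, those of *Rarb* and *Cyp26a1*. The repeat was chosen as a known element, and both genes are known targets of retinoic acid. The 2 hits are therefore a description, and their share cannot be tested against that of all promoters. Both stretches are shown because a receptor and a breakdown enzyme carry the same element, with the half-sites in capitals, from chr14:16575493-16575549 (minus strand, 53 to 37 bases before the start) and chr19:37697756-37697807 (plus strand, 32 to 16 bases before the start). Both half-sites of the *Cyp26a1* repeat read as AGTTCA on the opposite strand. A match describes the letters of the window and not a bound site.
Rarb: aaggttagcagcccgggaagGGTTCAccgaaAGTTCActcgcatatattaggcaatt
Cyp26a1: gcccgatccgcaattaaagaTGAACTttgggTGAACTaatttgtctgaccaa

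The set of highest level differed among the genes. *Aldh1a2* was highest in intestine Mes cells, *Aldh1a1* in heart, *Aldh1a3* in forebrain, *Dhrs3* and *Rarb* in intestine Epi cells, *Crabp1* in skin Mes cells, *Crabp2* in forebrain, *Cyp26a1* in skin Epi cells and *Cyp26b1* in hindbrain. For all 9 genes, the range over embryos in the highest set overlapped that of the next. The embryo means of a set were compared with limma, with Benjamini-Hochberg adjustment over all genes tested in a contrast. A difference was called at an adjusted p under 0.05 where the log2 difference was at least 1 in size, or the slope at least 0.5 per day. Of 269 tests of these genes, 35 were called, against 2.73% of the tests of all genes. *Crabp1* gave 13 of them, *Crabp2* 11, *Aldh1a2*, *Cyp26a1* and *Rarb* 3 each, *Dhrs3* and *Cyp26b1* 1 each, and *Aldh1a1* and *Aldh1a3* none.

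**Figure D1:**
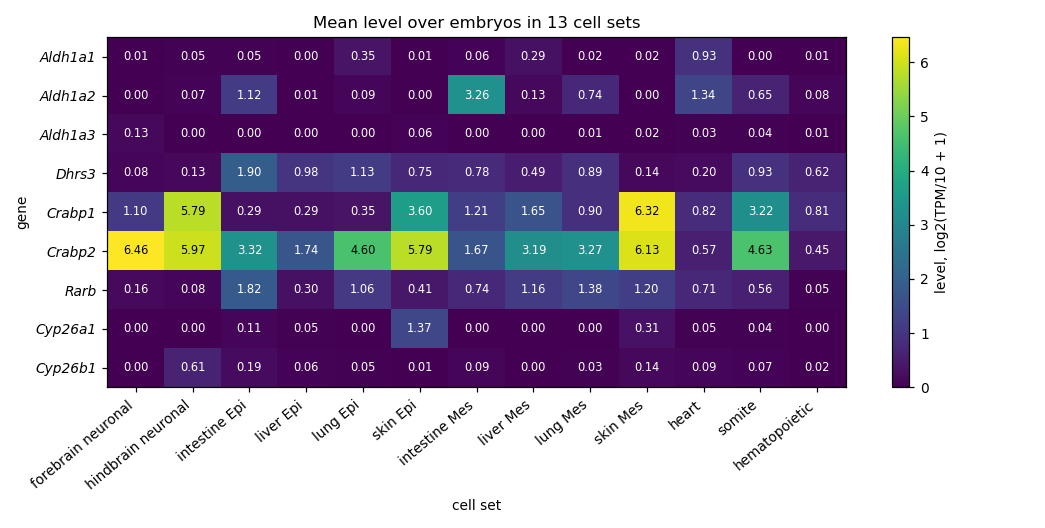
Mean level of each of the 9 genes (rows) in each of the 13 cell sets (columns), as log2(TPM/10 + 1) averaged over embryos. *Crabp1* and *Crabp2* reach 6.32 and 6.46 in their highest sets, and *Aldh1a3* stays at or under 0.13 in every set. All 9 genes share 1 colour scale, but levels are meant for comparing sets within a gene and not genes with each other.

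*Aldh1a2*, the main embryonic retinaldehyde dehydrogenase, was low in intestine Mes cells at E9.5 and was expressed in nearly all of them a day later. At E9.5 its level was 0.00, 0.04 and 0.38 in embryos 1, 2 and 3, with 7 of 26 cells holding a UMI and 1 expressing it. It was 5.40 and 5.14 in E10.5 embryos 1 and 2 and was 5.55 and 6.28 a day later, with 32 of 33 and 15 of 15 cells expressing it. No E9.5 value came near those of the later days. Embryo 3, with 0.38, was sequenced on the HiSeq 4000 like the later embryos.

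The slope of *Aldh1a2* in intestine Mes cells was 3.02 ± 0.28 per day (SE, adjusted p = 4.34e-11). It was 1 of 6 slopes called among 99 tests of the 9 genes, against 2.34% over all genes and sets and 1.24% in this set. It exceeded the mean slope of the other 10 sets by 3.09 ± 0.30 per day (adjusted p = 1.37e-10), a difference called for 1.49% of genes and tested after the levels had been seen. Leaving out each embryo in turn gave slopes of 2.85 to 3.48, and the HiSeq 4000 samples alone gave 2.47 (adjusted p = 2.52e-06). Among E10.5 and E11.5 embryos alone the slope was 0.65 (adjusted p = 0.579), so the difference lay between E9.5 and E10.5. It missed the threshold in edgeR on summed UMIs (slope 5.02, adjusted p = 0.0799).

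Other markers of the intestine Mes cells also moved with day. The mesothelial genes *Krt19* and *Upk3b* had levels of 1.16 to 2.49 and 0.00 to 1.18 at E9.5, against 0.14 to 0.70 and at most 0.12 later. The summed level of 8 epicardium and mesothelium markers, *Krt19* and *Upk3b* among them, was 6.16, 3.81 and 5.76 from the first day to the last. The sum was nearly as high on the last day as on the first, so the fall of *Krt19* and *Upk3b* does not stand for the whole list. For 6 epithelium markers the sum was 12.87, 8.97 and 8.39. Only 6 to 11 cells per E9.5 embryo stand behind these values. The part of such differences in cell make-up in the *Aldh1a2* slope was not tested.

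Over all days, *Aldh1a2* was higher in intestine Mes cells than in the other mesodermal sets, at 3.26 against 0.57, a difference of 2.68 ± 0.60 (adjusted p = 0.00363) seen in 5 of 7 embryos, where 1.38% of genes were called. This was 1 of 10 mesodermal differences called among 54 tests of these genes, against 1.57% over all genes. In the intestine, Epi cells had 0.62, 1.23 and 0.74 at E9.5, 1.87 and 1.73 at E10.5 and 0.80 and 0.84 at E11.5. They were therefore above the Mes cells of the same embryo at E9.5 and below them at both later days. The pooled Epi against Mes difference of -2.14 ± 0.62 (adjusted p = 0.0155) mixed these signs, with 4 of 7 embryos in its direction. It was lost without any single E10.5 or E11.5 embryo (-1.92 to -1.59, adjusted p = 0.0756 to 0.133) and with log2(TPM + 1), while E10.5 and E11.5 alone gave -4.28 (adjusted p = 3.33e-13).

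In heart, *Aldh1a2* was at 0.34 and 0.28 at E9.5, 1.60 and 2.97 at E10.5 and 1.81 and 1.07 at E11.5, and 82 of 238 cells expressed it. The later embryos were all above the E9.5 ones, but the slope of 0.56 per day was not called (adjusted p = 0.384), and here day and sequencer cannot be told apart. In somite, the E9.5 embryos had 2.61, 0.97 and 0.24 and the later embryos 0.02 to 0.40. Embryo 1 alone had 17 of its 24 cells expressing the gene, and the slope of -0.61 was not called (adjusted p = 0.694). Lung Mes cells showed a like spread, with 2.85 in E9.5 embryo 2 (24 of 30 cells) and 0.00 to 0.55 in the other 5 embryos. In skin Mes cells 0 of 77 cells had a UMI of *Aldh1a2*, which allows a share of up to 3.90% of cells with one.

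**Figure D2:**
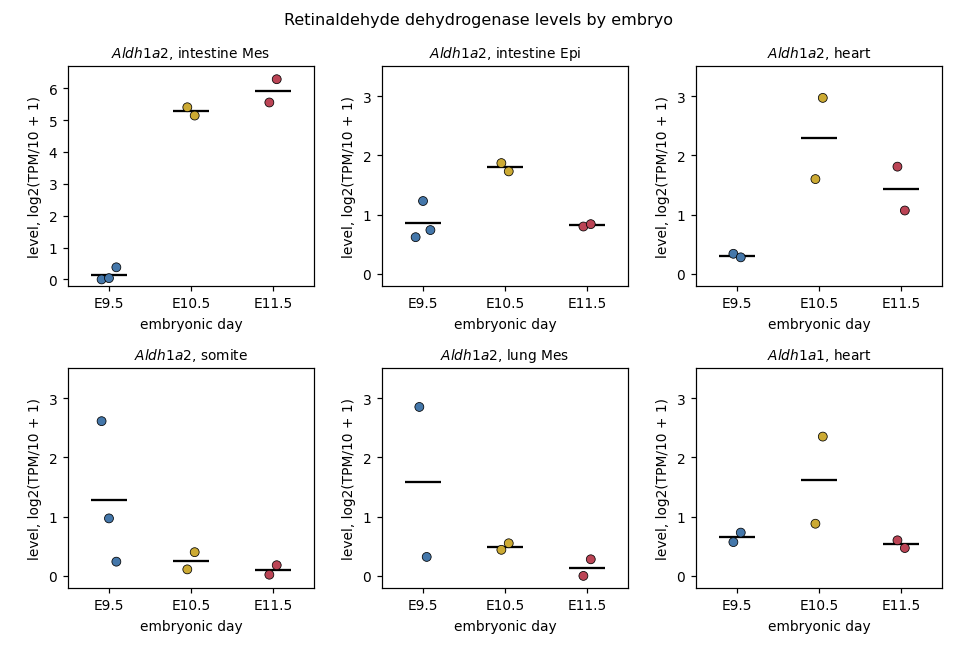
Level of *Aldh1a2* in intestine Mes and Epi cells, heart, somite and lung Mes cells and of *Aldh1a1* in heart, as log2(TPM/10 + 1), by embryonic day, with 1 point per embryo and a line at the mean of a day. The vertical scale of intestine Mes cells is larger. In intestine Mes cells the 3 E9.5 embryos lie at 0.38 or below and the 4 later ones at 5.14 or above, while the points of heart and somite spread within a day.

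*Aldh1a1* encodes a second dehydrogenase of the family. Its highest level was in heart, with 0.57 and 0.73 at E9.5, 0.88 and 2.35 at E10.5 and 0.60 and 0.47 at E11.5, and 66 of 238 cells expressed it. The heart of E10.5 embryo 2 stood apart from the rest. Lung Epi cells had the next highest mean (0.35), with 0.00 and 1.34 in the E11.5 embryos. On that day 7 of 21 lung Epi cells expressed it (33.3%, beside 17.4% of heart cells). Heart exceeded the other mesodermal sets by 0.85 ± 0.13 (adjusted p = 9.07e-06), under the size threshold. With the HiSeq 4000 samples alone the difference was 1.05 (adjusted p = 0.000151) and passed it. The error pools all mesodermal sets, of which the others were lower and spread less, while heart embryos had an SD of 0.71.

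The heart cells with *Aldh1a1* were largely those with *Aldh1a2*: 52 of the 66 also expressed *Aldh1a2* (78.8%), against 17.4% of the other heart cells. Markers of the epicardium and mesothelium, the cell layer that covers the heart, were more frequent in the 82 cells with *Aldh1a2* than in the 156 without it. *Upk3b* was expressed in 72.0% against 10.3%, *Wt1* in 76.8% against 29.5%, *Tcf21* in 91.5% against 30.1% and *Tbx18* in 78.0% against 19.2%, each in the same direction in 6 of 6 embryos. The cardiomyocyte genes *Nkx2-5* and *Myh7* were less frequent, at 41.5% against 70.5% (lower in 5 of 6 embryos) and 52.4% against 79.5% (lower in 4 of 6). *Ttn* was at 79.3% against 82.7%, and *Tnnt2* was found in 100% of both. The endothelium markers went both ways. *Tek* (52.4% against 30.1%) and *Egfl7* (67.1% against 55.1%) were more frequent in the cells with *Aldh1a2*, each in 5 of 6 embryos. *Pecam1* (3.66% against 25.0%), *Cdh5* (1.22% against 12.82%), *Emcn* (3.66% against 14.1%) and *Kdr* (3.66% against 11.54%) were less frequent in them. Each of these was lower in 3 to 5 of 6 embryos. Cells with *Aldh1a2* held more UMIs (median 342120.5 against 273135). After thinning each cell to 100000 UMIs, which left 86 cells with and 104 without, *Upk3b* was at 68.6% against 17.3%, *Wt1* at 77.9% against 40.4%, *Tek* at 54.7% against 37.5% and *Egfl7* at 69.8% against 70.2%. These splits were made on the measured level of *Aldh1a2* and are given without a test.

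E10.5 embryo 2, the heart sample with the highest *Aldh1a1* and *Aldh1a2*, also had the highest heart levels of *Upk3b* (3.25), *Wt1* (2.72) and *Tcf21* (3.72). The summed level of the 8 epicardium and mesothelium markers in heart was 8.83, 17.63 and 9.91 on the 3 days. The share of such cells picked from each heart was not tested for its part in these values. In liver Mes cells of the 3 E9.5 embryos, *Wt1* was at 1.74 to 3.40 and *Upk3b* at 1.05 to 2.54 while *Aldh1a2* was at 0.00 to 0.36.

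**Figure D3:**
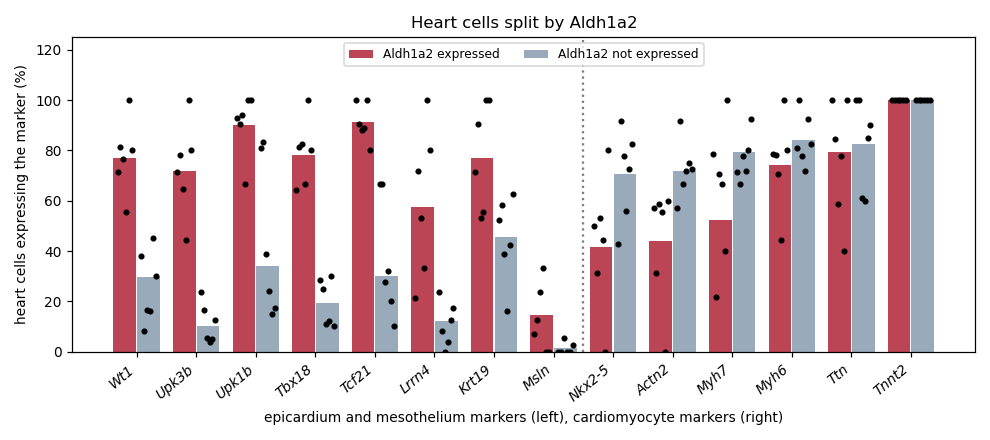
Share of heart cells that express each marker, in percent, among the 82 cells with *Aldh1a2* and the 156 without. Bars give the pooled share and dots single embryos. Epicardium and mesothelium markers on the left are more frequent in the cells with *Aldh1a2*, such as *Upk3b* at 72.0% against 10.3%, and *Nkx2-5*, *Actn2* and *Myh7* less frequent.

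*Aldh1a3*, the remaining dehydrogenase, was near the detection limit. Its mean level was 0.13 in forebrain, with at most 0.39 in an embryo and 7 of 184 cells expressing it, and at or under 0.06 in each of the other 12 sets. No difference was called. Its forebrain slope of 0.10 ± 0.03 per day (adjusted p = 0.019) was under the size threshold.

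*Dhrs3*, which opposes the synthesis of retinoic acid by reducing retinaldehyde, was highest in intestine Epi cells. The 3 E9.5 embryos had 1.52, 2.73 and 0.97, the E10.5 embryos 1.21 and 2.45 and the E11.5 embryos 2.52 and 1.91, and 74 of 110 cells expressed it. Epi cells exceeded Mes cells in 7 of 7 embryos, by 1.12 ± 0.34 (adjusted p = 0.0246). The call was lost without E10.5 embryo 2 (1.04, adjusted p = 0.0781) or without E11.5 embryo 1 (1.07, adjusted p = 0.0704). It was also lost with log2(TPM + 1), after thinning to 100000 UMIs and in edgeR on summed UMIs (adjusted p = 0.0517, 0.0722 and 0.214). Against the epithelial cells of the other organs the difference was 0.95 (adjusted p = 0.0238), under the size threshold, which it passed with at least 5 cells per mean (1.09, adjusted p = 0.0015) or without E9.5 embryo 3 (1.04, adjusted p = 0.0318).

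In lung Epi cells *Dhrs3* was at 3.22 in E9.5 embryo 2, which rests on 3 cells, and at 0.10 to 1.26 in the other 5 embryos. In liver Epi cells it ranged from 0.28 to 2.25. The lowest mean levels were in forebrain (0.08), hindbrain (0.13) and skin Mes cells (0.14). Neighbouring sets in the order of *Dhrs3* levels overlapped throughout.

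Epithelial and mesenchymal cells of an organ were compared in 36 tests of the 9 genes, of which 6 were called, against 4.22% over all genes. Of these, 4 were in the intestine, where *Dhrs3*, *Rarb* and *Crabp2* were higher in Epi cells and *Aldh1a2* in Mes cells, and where 3.93% of all genes were called. The median difference over the 9 genes in the intestine was 0.10, beside 0.00 over all genes tested. The other 2 were *Crabp1* and *Cyp26a1* in the skin, where 3.7% were. None was called in liver or lung, where 5.77% and 3.48% of genes were.

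*Crabp1*, a retinoic acid binding protein known from the developing nervous system and face, divided the sets into high and low. In skin Mes cells the lowest embryo had 5.38, the median was 6.38 and the highest had 7.11, and 77 of 77 cells expressed it. In hindbrain neuronal cells the values were 4.96 and 6.28 at E9.5, 6.77 and 5.42 at E10.5 and 6.29 and 5.0 at E11.5, with 185 of 185 cells. Skin Epi cells had 1.60 to 4.74 and somite 2.64 to 4.17, and all other sets had means of 1.65 or less. The ranges of hindbrain and skin Epi cells did not overlap, nor did those of somite and liver Mes cells, whereas the other neighbours in the order did.

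The 2 brain regions differed in *Crabp1* more than in any other of these genes. Forebrain neuronal cells had 1.14 and 2.07 at E9.5, 1.38 and 1.44 at E10.5 and 0.49 and 0.09 at E11.5, all under every hindbrain value. Forebrain was lower by a log2 difference of -4.69 ± 0.33 (adjusted p = 7.03e-07), in 6 of 6 embryos. It was the 1 call among 8 genes tested between the regions, against 0.606% over all genes, and it kept its side of the threshold in every alternative run.

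Among mesodermal sets, *Crabp1* was higher in skin Mes cells by 4.76 ± 0.33 (adjusted p = 7.51e-13), where 1.87% of genes were called, and no embryo value of another mesodermal set reached them (0.00 to 4.17). It was also higher in somite, by 1.05 ± 0.31 (adjusted p = 0.035), where 1.08% of genes were called. The somite call was lost without any single embryo other than E9.5 embryo 2, at 0.91 to 1.15 (adjusted p = 0.044 to 0.136), either by p or by size, and by size with the HiSeq 4000 samples alone (0.99). *Crabp1* was lower in heart (-1.84 ± 0.33, adjusted p = 7.73e-05), lung Mes cells (-1.75 ± 0.33, adjusted p = 0.000776) and intestine Mes cells (-1.38 ± 0.31, adjusted p = 0.00344), against 2.98%, 1.05% and 1.38% of all genes called. The heart and intestine calls were lost in edgeR on summed UMIs (-1.50, adjusted p = 0.09, and -1.69, adjusted p = 0.0661).

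Among epithelial sets, skin stood apart in *Crabp1*, at 3.60 against 0.31, a difference of 3.29 ± 0.36 (adjusted p = 6.37e-10) in 6 of 6 embryos, where 4.28% of genes were called. It was 1 of 7 epithelial differences called among 36 tests, against 3.78% over all genes. In intestine and liver Epi cells *Crabp1* was lower (-1.13 ± 0.34, adjusted p = 0.024, and -1.12 ± 0.36, adjusted p = 0.0188), against 2.1% and 6.64% of all genes. The intestine call was lost without either E10.5 embryo, E9.5 embryo 2 or E9.5 embryo 3 (-1.15 to -0.97, adjusted p = 0.049 to 0.0868), and the liver call without either E10.5 embryo or E9.5 embryo 3 (-1.07 to -1.01, adjusted p = 0.0751 to 0.0833). Both were also lost with E10.5 and E11.5 alone and in edgeR, the intestine call with log2(TPM + 1) and the liver call with at least 5 cells per mean.

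Skin Mes cells exceeded skin Epi cells in *Crabp1* in 6 of 6 embryos, with no overlap, and the Epi against Mes difference was -2.72 ± 0.44 (adjusted p = 1e-05). It was lower than the mean of the other 3 organs by -1.77 ± 0.52 (adjusted p = 0.0227), a difference called for 4.03% of genes and tested after the levels had been seen. In edgeR on summed UMIs the skin difference was -2.21 (adjusted p = 0.162). Skin Epi cells had 4.35 and 4.10 at E9.5, 4.74 and 3.79 at E10.5 and 1.60 and 3.01 at E11.5. Both E11.5 values lay under the 4 earlier ones, but the slope of -0.96 per day was not called (adjusted p = 0.053). It was called with at least 5 cells per mean (adjusted p = 0.0334) and without E9.5 embryo 3 (-1.15, adjusted p = 0.0314).

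*Crabp2* encodes the binding protein that passes retinoic acid to its receptors in the nucleus, and 1226 of the 1819 kept cells expressed it. Forebrain had 6.84 and 7.02 at E9.5, 6.60 and 7.33 at E10.5 and 5.69 and 5.25 at E11.5. Hindbrain had 5.11 to 6.76, skin Mes cells 5.17 to 6.80, skin Epi cells 5.42 to 6.17 and somite 2.65 to 5.76. Heart (0.13 to 1.02) and hematopoietic cells (0.00 to 1.17) formed the low end. Between forebrain and hindbrain the ranges overlapped and no difference was called.

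Between major groups, 5 of 36 tests were called, against 3.5% over all genes, and all 5 were *Crabp1* or *Crabp2*. *Crabp2* was higher in neuronal cells than in the mean of the other groups by 3.69 ± 0.25 (adjusted p = 7.01e-12, 6 of 6 embryos) and lower in hematopoietic cells by -3.95 ± 0.24 (adjusted p = 4.63e-13, 7 of 7 embryos), neither with any overlap of embryo values, against 3.29% and 6.88% of all genes called in these groups. *Crabp1* was higher in neuronal cells by 2.31 ± 0.39 (adjusted p = 3.91e-05) and lower in hematopoietic cells by -1.45 ± 0.37 (adjusted p = 0.00192). It was also lower in epithelial cells, by -1.15 ± 0.37 (adjusted p = 0.023), where 2.28% of genes were called. This call was lost without E10.5 embryo 1 (-1.04, adjusted p = 0.0511), E11.5 embryo 1 (-1.11, adjusted p = 0.0669) or E9.5 embryo 2 (-0.96, adjusted p = 0.0265, under the size threshold), and with the HiSeq 4000 samples (-0.89) or E10.5 and E11.5 alone (-0.87).

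**Figure D4:**
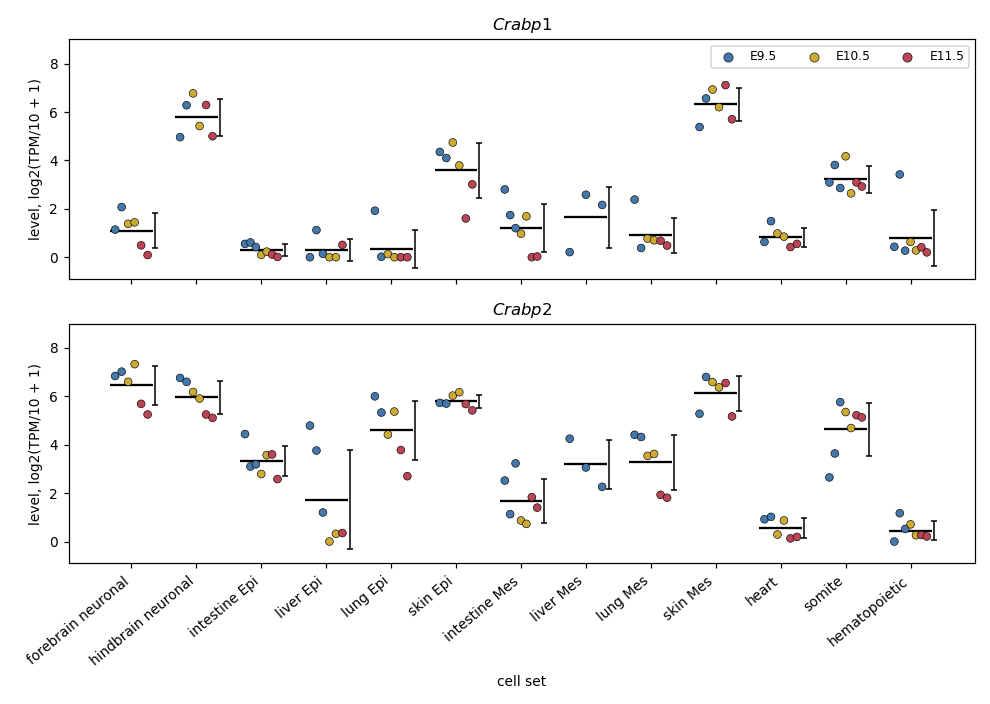
Level of *Crabp1* (top) and *Crabp2* (bottom) in the 13 cell sets, as log2(TPM/10 + 1). Points are embryos coloured by day, horizontal lines the means and error bars 1 SD over embryos. *Crabp1* separates hindbrain (4.96 to 6.77) from forebrain (0.09 to 2.07), while *Crabp2* is high in both.

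Within the mesoderm, *Crabp2* was higher in skin Mes cells (3.46 ± 0.39, adjusted p = 5.69e-08) and somite (1.67 ± 0.37, adjusted p = 0.00342) and lower in heart (-3.21 ± 0.39, adjusted p = 1.02e-07) and intestine Mes cells (-1.89 ± 0.37, adjusted p = 0.000745). In each of these, 6 of 6 or 7 of 7 embryos showed the direction. Together with *Crabp1*, this gave 9 of the 10 mesodermal calls. *Crabp2* was also higher in skin Epi cells than in the other epithelia (2.57 ± 0.48, adjusted p = 7.61e-05) and lower in liver Epi cells (-2.84 ± 0.48, adjusted p = 1.1e-05). In the intestine, Epi exceeded Mes cells by 1.65 ± 0.55 (adjusted p = 0.0433), which was lost without either E10.5 embryo, E11.5 embryo 1 or E9.5 embryo 2 (1.45 to 1.63, adjusted p = 0.0782 to 0.16), with no filter on low values, with log2(TPM + 1) and in edgeR.

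In liver and lung epithelium *Crabp2* fell with day, with neither call kept in every alternative. Liver Epi cells had 4.79, 3.76 and 1.20 at E9.5, 0.00 and 0.32 at E10.5 and 0.35 at E11.5, a slope of -1.78 ± 0.41 per day (adjusted p = 0.00183), where 2.24% of genes were called. Without E9.5 embryo 1 the slope was -1.24 and not called (adjusted p = 0.0509), and the HiSeq 4000 samples alone gave -0.42 (adjusted p = 0.915). Embryo 3, the E9.5 embryo on the HiSeq 4000, lay nearest to the later ones. The summed level of 6 hematopoietic markers in these cells was 5.60, 10.55 and 10.28 at the 3 days, with 4 or 5 cells in each later embryo. Its part in the slope was not tested. Such sums were not particular to liver Epi cells and varied widely. They were 16.57 in forebrain at E10.5 and 13.09 in heart at E11.5, but 0.16 in lung Epi cells at E10.5.

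Lung Epi cells had *Crabp2* levels of 6.00 and 5.33 at E9.5, 4.42 and 5.37 at E10.5 and 3.78 and 2.70 at E11.5. The slope of -1.21 ± 0.37 (adjusted p = 0.0491, 2.43% of genes called) was near the threshold and was lost without either E10.5 or E11.5 embryo or E9.5 embryo 2 (-1.38 to -0.92, adjusted p = 0.0718 to 0.352). It was lost as well on the HiSeq 4000 alone, with no filter, with log2(TPM + 1), with at least 5 cells per mean (-0.77, adjusted p = 0.872), after thinning and in edgeR, so in 11 of 15 alternatives. Lung Mes cells had 4.41 and 4.32, then 3.54 and 3.62, then 1.93 and 1.81, with each day under the one before. Their slope of -1.25 was not called (adjusted p = 0.057). It was called with at least 5 cells per mean (adjusted p = 0.0365), without E9.5 embryo 3 (-1.33, adjusted p = 0.0391) and on the HiSeq 4000 alone (-1.29, adjusted p = 0.0153).

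*Crabp1* in hematopoietic cells followed the library they came from. E9.5 embryo 2 stood at 3.42 and the other 6 embryos at 0.20 to 0.63. In that embryo's hindbrain library, 10 of 10 hematopoietic cells held a *Crabp1* UMI at a mean level of 4.93, beside 6.28 in the neuronal cells picked from the same organ. Hematopoietic cells of liver libraries had 0.00 to 0.14 and those of heart libraries 0.11 to 0.65. Those of forebrain had 1.76 and 1.39 in E10.5 embryos 1 and 2, beside 1.38 and 1.44 in neuronal cells. In the lung of E9.5 embryo 2 they had 2.66, beside 2.38 in Mes cells. The skin ones of E11.5 embryo 2 had 2.95, beside 3.01 in Epi and 5.70 in Mes cells. In the same hindbrain cells of E9.5 embryo 2, *Crabp2* was at 1.56, beside 6.60 in the neuronal cells, and *Dhrs3* at 1.86, beside 0.27. By the paper, most of the primitive macrophages came from organs other than liver. Organ and kind of hematopoietic cell were therefore not separated in these values. A part of a shared *Crabp1* signal in the forebrain, lung Mes and skin Epi levels was not tested. Free RNA or mislabelled cells as a source were not tested. No intestine library held more than 1 hematopoietic cell, so *Aldh1a2* could not be read in such cells there. In heart libraries the hematopoietic cells had 0.19 to 1.13 of it.

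*Rarb* encodes retinoic acid receptor beta, a receptor whose own gene is a known target of retinoic acid. The promoter stretch printed above lies inside the span of the gene and not at its outer start. Counts of 3′-end molecules do not tell from which start *Rarb* was read. *Rarb* was highest in intestine Epi cells, with 1.20, 2.62 and 1.59 at E9.5, 1.63 and 2.59 at E10.5 and 1.55 and 1.53 at E11.5, and 68 of 110 cells expressed it. No embryo was under 1.20. Intestine exceeded the other epithelia by 1.22 ± 0.27 (adjusted p = 0.00131) in 7 of 7 embryos, a call kept in every alternative run.

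Intestine Epi cells also exceeded intestine Mes cells in *Rarb*, by 1.08 ± 0.33 (adjusted p = 0.0228). This call was lost without E10.5 embryo 1 (1.04, adjusted p = 0.0705), E10.5 embryo 2 (0.89, adjusted p = 0.144) or E9.5 embryo 2 (0.91, adjusted p = 0.0736), with log2(TPM + 1) and in edgeR. The intestine difference was larger than the mean of those in the other 3 organs by 1.74 ± 0.39 (adjusted p = 0.00323), where 2.8% of genes were called, a comparison chosen after the levels had been seen.

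In lung Epi cells the *Rarb* slope was -0.78 ± 0.23 per day (adjusted p = 0.0404). It rested on E9.5 embryo 2, at 2.89 over 3 cells, against 0.00 to 1.35 in the other 5 embryos. Without that embryo the slope was -0.32 (adjusted p = 0.841), and it was also lost without E10.5 embryo 2 (-0.78, adjusted p = 0.0557) or E11.5 embryo 2 (-0.65, adjusted p = 0.303), on the HiSeq 4000 alone, with E10.5 and E11.5 alone, with at least 5 cells per mean, after thinning and in edgeR.

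*Rarb* levels of mesodermal sets differed by day in both directions. Lung Mes cells had 1.21 and 0.78 at E9.5, 0.82 and 1.34 at E10.5 and 2.58 and 1.57 at E11.5, when both embryos were above those of the intestine Epi cells. Skin Mes cells had 1.42 and 1.77 at E9.5, 1.61 and 1.81 at E10.5 and 0.39 and 0.19 at E11.5. Somite had 0.29 to 0.37 at E9.5, 1.66 and 1.10 at E10.5 and 0.04 and 0.12 at E11.5, so the middle day was above both others. None of these 3 slopes was called. Neuronal and hematopoietic cells stayed at or under 0.37 in every embryo.

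**Figure D5:**
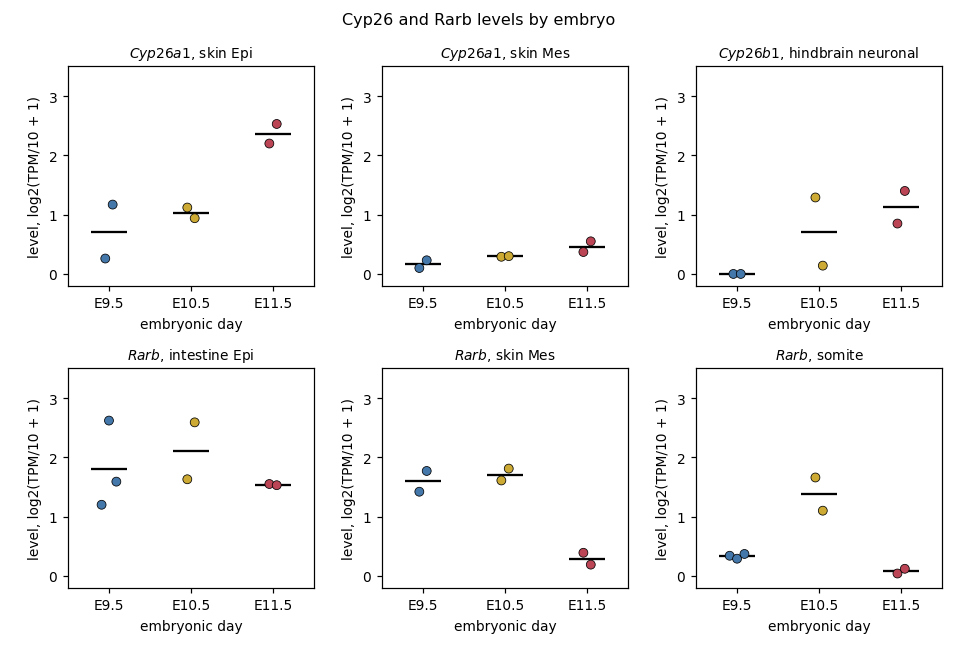
Level of *Cyp26a1*, *Cyp26b1* and *Rarb* in selected cell sets by embryonic day, as log2(TPM/10 + 1), with 1 point per embryo and a line at the mean of a day. *Cyp26a1* in skin Epi cells lies between 0.26 and 1.17 at E9.5 and E10.5 and at 2.20 and 2.53 at E11.5, and *Cyp26b1* in hindbrain is at 0.00 in both E9.5 embryos.

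*Cyp26a1*, which degrades retinoic acid and is itself a known target of it, was largely a gene of the skin in these cells. Skin Epi cells had 0.26 and 1.17 at E9.5, 1.12 and 0.94 at E10.5 and 2.20 and 2.53 at E11.5. The number of cells expressing it was 5 of 17, 8 of 22 and 26 of 40 at the 3 days. Both E11.5 embryos were above all earlier ones. Skin Mes cells had 0.10 to 0.55, and in every other set the highest embryo was at or under 0.32. In forebrain 0 of 184 cells had a UMI, which allows a share of up to 1.63%.

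The slope of *Cyp26a1* in skin Epi cells was 0.82 ± 0.07 per day (adjusted p = 4.66e-13), where 2.7% of genes were called, and exceeded the mean of the other sets by 0.80 ± 0.07 (adjusted p = 6.84e-12), where 1.01% of genes were called. The HiSeq 4000 samples alone gave 0.70 (adjusted p = 1.17e-05), and edgeR on summed UMIs gave 1.03 (adjusted p = 0.776). The limma errors for *Cyp26a1* pool the spread of all sets in a fit, most of them at low levels. They can be smaller than the skin embryos alone would give. Against the other epithelia, skin was higher by 1.32 ± 0.14 (adjusted p = 3.15e-10), in 6 of 6 embryos. Epi exceeded Mes cells of the skin in 6 of 6 embryos, by 1.06 ± 0.17 (adjusted p = 9.27e-06), and fell under the size threshold without E11.5 embryo 1 (0.91, adjusted p = 0.000364) or E11.5 embryo 2 (0.88, adjusted p = 7.19e-05). That difference exceeded the mean of the other 3 organs by 1.01 ± 0.20 (adjusted p = 0.000397). Over the same days, the summed level of 6 epithelium markers in skin Epi cells was 32.18, 30.68 and 24.08, and the part of this in the slope was not tested.

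*Cyp26b1*, the second breakdown enzyme, had its highest level in hindbrain. None of the 75 hindbrain cells at E9.5 held a UMI, which allows a share of up to 4.00%. At E10.5 the embryos had 1.29 and 0.14 and at E11.5 0.85 and 1.40, with 14 of 58 and 14 of 52 cells expressing it. The slope was 0.56 ± 0.08 per day (adjusted p = 4.53e-06), where 2.01% of genes were called, and exceeded that of the other sets by 0.52 ± 0.09 (adjusted p = 6.66e-05), where 0.578% of genes were called. Without E11.5 embryo 2 it was 0.47 (adjusted p = 0.00217) and after thinning to 100000 UMIs 0.47 (adjusted p = 5.52e-05), both under the size threshold. In edgeR on summed UMIs it was 5.13 (adjusted p = 0.498). Among E10.5 and E11.5 embryos it was 0.41 (adjusted p = 0.763), and the E9.5 hindbrain was sequenced only on the HiSeq 2500. The limma error pools the spread of all sets in the fit, most of them at low levels. It can be smaller than the hindbrain embryos alone would give.

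In the hindbrain, the summed level of 6 neuron markers was 13.65, 24.17 and 28.06 at the 3 days, and that of 6 progenitor markers 16, 18.05 and 13.74. Their part in the *Cyp26b1* slope was not tested. In intestine Epi cells *Cyp26b1* was at 0.52 and 0.72 in the E11.5 embryos and at most 0.08 before. All 11 cells that expressed it there were among the 46 of E11.5 (23.9%, beside 26.9% in hindbrain on that day), and its slope of 0.29 (adjusted p = 0.0134) was under the size threshold. In forebrain 0 of 184 cells had a UMI of it.

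Synthesis and breakdown enzymes were seldom found in the same cell. Of 1819 kept cells, 332 expressed at least 1 *Aldh1a* gene and 134 *Cyp26a1* or *Cyp26b1*, and 14 expressed both. That is 4.22% of the cells with an *Aldh1a* gene, against 8.07% of the rest. The sets differ, so that intestine Mes cells held 48 cells with *Aldh1a* and 2 with *Cyp26*, skin Epi cells 2 and 39, and hindbrain 7 and 28. Heart and intestine Epi cells each held 4 of the cells with both. *Cyp26* was expressed in 4.08% of heart cells with an *Aldh1a* gene and 3.57% of those without, and in 9.30% against 17.9% of intestine Epi cells. The intestine Epi shares mix days. *Aldh1a2* was expressed there in 36.7%, 80.0% and 23.9% of cells from E9.5 to E11.5, and all *Cyp26b1* cells were of E11.5. *Crabp1* and *Crabp2* overlapped more, with 742 of 880 *Crabp1* cells also expressing *Crabp2* (84.3%), against 51.5% of the rest. Cells of an embryo are not replicates, and these shares carry no test.

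Across the 13 set means, as a description over sets that share embryos and libraries, the highest correlations between 8 of the genes, *Aldh1a3* left out for its low level, were 0.64 (*Crabp1* with *Crabp2*), 0.56 (*Crabp1* with *Cyp26b1*) and 0.54 (*Dhrs3* with *Rarb*). Correlations of *Cyp26a1* and *Cyp26b1* rest largely on 1 set each. *Cyp26a1* was at 1.37 in skin Epi cells and 0.31 in the next set, *Cyp26b1* at 0.61 in hindbrain and 0.19 in the next. Among 11461 other genes, the closest to *Cyp26a1* were *Sfn* (0.998), *Sostdc1* (0.996) and *Gjb2* (0.995). *Aldh1a2* was closest to *Serinc5* (0.933), *Mamdc2* (0.928) and *Hpgd* (0.909), and *Aldh1a1* to *Mcam* (0.957), *Synm* (0.953) and *Bik* (0.943). For *Crabp1* they were *Mab21l1* (0.914), *Pappa2* (0.893) and *Wdfy3* (0.892), and for *Crabp2* *Zc3h13* (0.921), *Rbm15b* (0.907) and *Gpc1* (0.901). *Rarb* was closest to *Kif1c* (0.876), *Lrp6* (0.86) and *Myof* (0.847), *Dhrs3* to *Mocs1* (0.904), *Xxylt1* (0.902) and *Arg1* (0.885), and *Cyp26b1* to *Thsd7a* (0.961), *Nkx6-2* (0.959) and *Cartpt* (0.946).

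Of 20 other genes of the retinoid pathway, which carry, store and convert retinol or act as receptors, up to 19 were tested. Between epithelial organs 13 of 72 tests were called (against 3.78% over all genes), between mesodermal organs 7 of 102 (1.57%) and between major groups 11 of 76 (3.5%). Between Epi and Mes cells 6 of 72 were called (4.22%), all higher in Epi cells, of slopes 6 of 198 (2.34%) and between forebrain and hindbrain 0 of 14 (0.606%). The calls were led by carriers of retinol. *Rbp4*, the plasma carrier, was higher in liver Epi cells by 6.52 (adjusted p = 3.02e-19), and *Ttr*, which binds it in plasma and is also a hepatoblast marker, by 6.35 (adjusted p = 1.29e-24). The median difference of the list in liver Epi cells was 0.14, beside 0.00 for all genes.

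In intestine Mes cells, where *Aldh1a2* was highest, *Rdh10*, which makes the retinaldehyde that *Aldh1a2* uses, was higher than in the other mesodermal sets by 1.03 (adjusted p = 2.56e-05). The list's median there was 0.01, beside -0.01 for all genes, of which 1.38% were called. In skin Epi cells, where *Cyp26a1* was highest, *Rbp4* (-4.47, adjusted p = 2.56e-13) and *Ttr* (-4.27, adjusted p = 9.62e-18) were lower than in the other epithelia, where 4.28% of all genes were called. The list's median in skin Epi cells was -0.10, beside -0.01. *Rbp4* (-3.52, adjusted p = 1.19e-09) and *Ttr* (-3.45, adjusted p = 5.57e-14) were also lower in lung Epi cells, which held no UMI of *Cyp26a1*. Both comparisons include liver Epi cells, where *Rbp4* and *Ttr* were highest (8.37 and 8.02).

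Of 16 genes known to respond to retinoic acid, 14 were tested. In intestine Mes cells the homeobox genes *Meis1* (1.43, adjusted p = 1.81e-05) and *Meis2* (1.12, adjusted p = 0.00563) were higher and the nuclear receptor gene *Nr2f1* lower (-1.03, adjusted p = 0.0114), with a list median of 0.03. *Meis1* was likewise higher in lung Mes cells (1.39, adjusted p = 0.000106), at a mean level of 3.78 beside 3.82 in intestine Mes cells. *Nr2f1* was also lower in heart (-1.47, adjusted p = 0.000206). In skin Mes cells *Nr2f1* was higher (2.17, adjusted p = 1e-06) and *Meis1* lower (-2.01, adjusted p = 4.98e-08), with a median of -0.23. Over all sets, 13 of 56 Epi against Mes differences of the list were called (5 higher, 8 lower, against 4.22% over all genes), 10 of 84 mesodermal (6 higher, 4 lower, against 1.57%) and 10 of 56 epithelial (5 higher, 5 lower, against 3.78%). Between major groups 8 of 56 were called (3.5%), of slopes 5 of 154 (2.34%) and between brain regions 0 of 6 (0.606%).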

How the data were processed

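The deposited values, named TPM, are CPM: the authors picked single cells by hand, tagged molecules with a cell barcode and a UMI in a modified STRT protocol that keeps 3′ ends, aligned reads to mm10 with TopHat2 (2.0.12), counted unique reads per gene with HTSeq, removed duplicate UMIs and scaled the counts to the cell's UMI total. CASAVA 1.8 is also named in the submitters' processing notes. Counting by strand and the annotation used are not given in the sources used here. Multiplying each value by the listed UMI total gave whole UMIs for 100% of values above 0 (tolerance 0.05), and the totals matched in all 1916 cells. Of these, the 1819 cells kept by the authors were used, with the authors' organ, major group, Epi or Mes label and day.

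The replicate was the embryo, a separate animal. Embryo means of log2(TPM/10 + 1) were fitted over all genes expressed in at least 3 of the cells compared with limma 3.58.1 in R 4.3.3 (eBayes with trend), and p-values were adjusted by Benjamini-Hochberg in each contrast. Each major group was compared with the mean of the other groups, Epi with Mes cells in each organ, each organ with the other organs among epithelial and among mesodermal sets, and forebrain with hindbrain, and a slope on embryonic day was fitted in 11 sets. The sets in a fit shared an estimate of spread for each gene, so errors and p do not rest on the named set alone. Tests of differences between organs or between slopes, and the fits on E10.5 and E11.5 alone, were chosen after seeing the data. The scripts were tested on simulated data. A share of 0 is given the limit of 3 cells, which covers counting error only. Median depth was 579613.5 UMIs per cell on the HiSeq 2500 and 241898 on the HiSeq 4000, with embryo medians of 192177 to 928653.

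The 9 genes and the lists were chosen with earlier results of these data known. Named genes are all 9, up to 3 called genes of each list in a contrast, of which those of the sets discussed are given, and the 3 genes of closest set levels. Some named results of the lists are not reported here, although the list counts include them. Same-numbered sets come from the same embryo, so the replicate block is the embryo. Deviations of 401 pairs of sets of an embryo correlated at -0.215 to 0.418, with a median of 0.065. Alternatives left out each embryo, used the HiSeq 4000 samples only, used no filter on low values, took the embryo as a block, used log2(TPM + 1), required 5 cells per mean, thinned cells to 100000 UMIs or ran edgeR 4.0.16 on summed UMIs.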

Additional observations from a re-analysis of the deposited data

Results flagged for a closer look

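In 43 set levels with 4 to 7 embryos and a mean of at least 0.5, 6 had an embryo far from the others by Dixon's test, which chance gives in about 1 of 20. E9.5 embryo 2 was the far one in 4: *Dhrs3* in lung Epi cells (3.22), *Crabp1* in hematopoietic cells (3.42), and *Aldh1a2* (2.85) and *Crabp1* (2.38) in lung Mes cells. The others were *Aldh1a2* in the somite of E9.5 embryo 1 (2.61) and *Aldh1a1* in the heart of E10.5 embryo 2 (2.35). E9.5 embryo 2 is the embryo labelled female and was sequenced on the HiSeq 2500, and lung has no other embryo on that sequencer.

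Effects of 1 organ or set differed from the mean of the others in 6 tests chosen after seeing the data: the Epi against Mes difference of *Rarb* in intestine (1.74), of *Crabp1* (-1.77) and *Cyp26a1* (1.01) in skin, and the slopes of *Cyp26b1* in hindbrain (0.52), *Cyp26a1* in skin Epi cells (0.80) and *Aldh1a2* in intestine Mes cells (3.09). Their errors and adjusted p stand with the comparisons above.

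Cells outside the 13 sets also held *Crabp1*. Its level was 6.46 in 13 forebrain cells of the mesodermal group from 2 embryos, 5.04 in 14 skin cells of the mesodermal group without an Epi or Mes label from 5 embryos, and 7.05 in 10 somite cells of the neuronal group from 1 embryo.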

How the results depend on the processing

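Of the 35 called differences of the 9 genes, 17 kept direction and side of the threshold in every alternative run, and 13 were lost on leaving out some single embryo. Over 515 combinations of difference and alternative, 433 kept their call, 81 lost it and 1 reversed: *Crabp2* in liver Epi cells had a slope of 0.19 (adjusted p = 1) with E10.5 and E11.5 alone. The number of calls among the 9 genes moved as follows. Between major groups it was 13 with log2(TPM + 1) and 22 in edgeR, against 5. Between Epi and Mes cells it was 2 with log2(TPM + 1) and 2 to 7 without single embryos, against 6. Between epithelial organs it was 5 to 8 without single embryos, against 7. Between mesodermal organs edgeR gave 18, against 10, and between brain regions 2, against 1. Of slopes it was 3 thinned, 2 in edgeR and 3 to 10 without single embryos, against 6. Counts over all genes moved too. Between major groups they were 7808 with log2(TPM + 1) and 18009 in edgeR, against 2438, between Epi and Mes cells 4549 and 4170, against 2637, between epithelial organs 7123 and 7039, against 2362, and between mesodermal organs 4482 and 6907, against 1466. Between brain regions they were 43 with no filter, 205 with log2(TPM + 1) and 200 in edgeR, against 86. Slopes gave 1580 on the HiSeq 4000, 1843 with E10.5 and E11.5, 7136 with log2(TPM + 1), 960 in edgeR and 2485 to 5704 without single embryos, against 4366. The share of higher calls was 57.6% between mesodermal organs and 76.9% in edgeR, and 32.4% of slopes against 57.1% on the HiSeq 4000, 58.6% with E10.5 and E11.5, 46.9% without E9.5 embryo 2 and 43.4% without E11.5 embryo 1. The median of all genes moved by up to 0.30 in edgeR (major groups) and 0.17 with log2(TPM + 1) (slopes). The cause of these changes was not tested. With the replicate block, *Crabp1* (-1.0, adjusted p = 0.0445) and *Crabp2* (1.20, adjusted p = 0.038) in lung Epi cells and the slope of *Crabp1* in intestine Mes cells (-0.93, adjusted p = 0.0492) were called besides, and no other call of the 9 genes changed. Mesodermal organs could not be fitted with E10.5 and E11.5 alone, since liver Mes cells are from E9.5. Sets of 3 to 5 cells in an embryo and 2 embryos per later day limit what the slopes can resolve, and a level of 0 says only that no UMI was seen.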

Other observations

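Several other genes of the pathway, among them *Rbp4*, *Ttr* and *Fabp5*, were highest in liver Epi cells, and others elsewhere. *Stra6*, which encodes the membrane receptor that takes up retinol from its plasma carrier, was highest in somite (1.41), and *Rdh10*, which oxidises retinol to retinaldehyde, in intestine Mes cells (1.41), where *Aldh1a2* also was. The receptor gene *Rarg* was at 1.37 in skin Mes cells and 1.36 in skin Epi cells. *Rara* was highest in liver Mes cells (1.28), which are from E9.5 only, and next in intestine Epi cells (1.17), where *Rarb* was highest. *Cdx2*, a homeobox gene of the hindgut, was higher in intestine Epi cells than in other epithelia by 1.64 (adjusted p = 5.48e-11, limma). *Tgm2*, a transglutaminase gene known to respond to retinoic acid, was higher in heart than in other mesodermal sets by 1.72 (adjusted p = 5.67e-14), and *Nr2f2* lower by -2.07 (adjusted p = 4.23e-07).

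Among cells outside the 13 sets, 16 intestine cells of the mesodermal group without a Mes label had *Aldh1a2* at 2.04, 21 such lung cells had *Crabp1* at 3.21, and 3 skin cells of the epithelial group without an Epi label had *Cyp26a1* at 2.29. The 10 somite cells of the neuronal group had *Crabp2* at 7.63.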
